A study of Mus musculus with 10 samples.

Results

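The genes here encode the MYC proteins, their obligate partner MAX and some proteins that compete for MAX or belong to the related MLX branch. They are Myc, Mycn, Mycl, Max, Mxd1, Mxd4, Mxi1, Mnt, Mlx and Mga. They were taken as a list of symbols, and all 10 were found among the 21627 protein-coding genes on the autosomes and X of the RefSeq annotation (assembly GRCm38.p6, coordinates as in mm10). A peak row was counted for a gene when it overlapped the gene or the 10 kb on either side by at least 1 bp. The members collected 90 of the 61587 rows in the series, and rows that overlapped were merged into 17 regions, of 12266 regions over all lists.

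The series used ATAC-seq, which reads accessible DNA through transposase cutting, on frozen MYC-driven mouse liver tumours that differ in Arid1a. ARID1A is a subunit of the SWI/SNF (BAF) remodelling complex. There were 4 WT, 3 Het and 3 Homo libraries, each with its own list of called peaks. The labels number the replicates without saying that they came from separate mice. The p-values below compare counts of libraries with and without a row, and they do not measure the spread between mice.

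All groups were FVB mice that carried LAP-tta, which makes a doxycycline-repressed transcription factor from a liver promoter, and TRE-MYC, the MYC transgene that this factor turns on. Tumours formed once doxycycline was withdrawn from the water, and the tissue was collected when the mouse died. WT tumours were Arid1aflfl without a Cre, at about 55 days of age. Het tumours were Arid1afl/+ with Alb-cre, at about 70 days, and Homo tumours were Arid1aflfl with Alb-cre, at about 100 days. The albumin promoter restricts the Cre to cells of the hepatocyte lineage, so other cells of a Homo tumour keep Arid1a. Genotype, the presence of Cre and age cannot be told apart in this design.

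MYC, N-MYC and L-MYC bind DNA only as dimers with MAX, and the dimer recognises the E-box CACGTG. MXD1, MXD4, MXI1 and MNT bind the same site as dimers with MAX and recruit SIN3 corepressors, so they oppose MYC. MGA also dimerises with MAX and belongs to a Polycomb-related repressor complex, while MLX pairs with MNT, MXD1, MXD4 and the glucose-responsive factors MLXIP and MLXIPL. In the liver this network is known for its part in growth and in sugar and lipid metabolism, and MYC is a frequent driver of liver cancer.

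The lists held between 1763 rows (Homo 2) and 9618 rows (Homo 3). Depth, taken as the smallest background that many rows of a list share, in tags per window, was 0.464 in the shallowest library (Homo 2) and 1.745 in the deepest (WT 1), which differ 3.76-fold. It was between 0.985 and 1.745 in WT, between 0.655 and 0.738 in Het, and 0.914, 0.464 and 1.608 in Homo 1, 2 and 3. Homo 3 therefore lay with the WT libraries in depth and list length, and Homo 1 and Homo 2 did not. Of 10 hepatocyte markers in the table, 2 to 8 had a row in a WT library, 1 or 2 in a Het library and 0 to 7 in a Homo library. Alb was called in 1 WT and 1 Homo library, and Foxa2 and Serpina1a in none. None of 5 endothelial and none of 5 stellate or fibroblast markers had a row in any library, while the macrophage marker Cd68 had one in all 10 and Clec4f, Adgre1 and Csf1r in none. Spi1, the fifth macrophage marker, was called in 1 Homo library. Of 4 lymphocyte markers only Cd79a was called (4 WT, 2 Het and 2 Homo libraries), and of 4 cholangiocyte markers only Epcam (2 WT libraries). A marker's row could lie anywhere in the gene or the 10 kb on either side, and so at the start of a neighbour. The part of depth or cell makeup in the results below was not tested unless a depth-matched value is given.

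Of the 10 members, 8 had a row in at least 1 library, against 55.5% of all genes tested. Mxd1 and Mxd4, the genes of 2 MAX-binding repressors, had a row in all 10 libraries, a pattern that 887 genes (4.1%) shared. Mycn and Mycl had no row in any library, as did 44.5% of all genes. Max and Mnt were called in 9 libraries, Mga in 6, Mxi1 in 5, Mlx in 4 and Myc in 2. Of the 17 regions, 7 lay over a RefSeq start window of the member, 5 elsewhere inside it and 5 outside it within 10 kb. Of the 5 outside, 3 covered the start of another gene.

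The number of members with a row was 7 in each of the 4 WT libraries (7 ± 0, SD, n = 4). It was 5, 4 and 4 in Het 1, 2 and 3 (4.33 ± 0.577, SD, n = 3) and 5, 2 and 7 in Homo 1, 2 and 3 (4.67 ± 2.52, SD, n = 3). Every Het library lay below every WT library, while Homo 3 equalled WT and Homo 2 was the lowest of all. The share of all genes with a row moved the same way: 44.1% ± 4.19 in WT, 25.9% ± 9.47 in Het and 27.5% ± 19.7 in Homo (SD). The plot of members against depth shows that each library with 7 members had a depth of at least 0.985. The other depths were 0.914 (Homo 1, 5 members), 0.738 (Het 3, 4), 0.696 (Het 1, 5), 0.655 (Het 2, 4) and 0.464 (Homo 2, 2). Whether depth accounts for these counts was not tested.

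**Figure D1:**
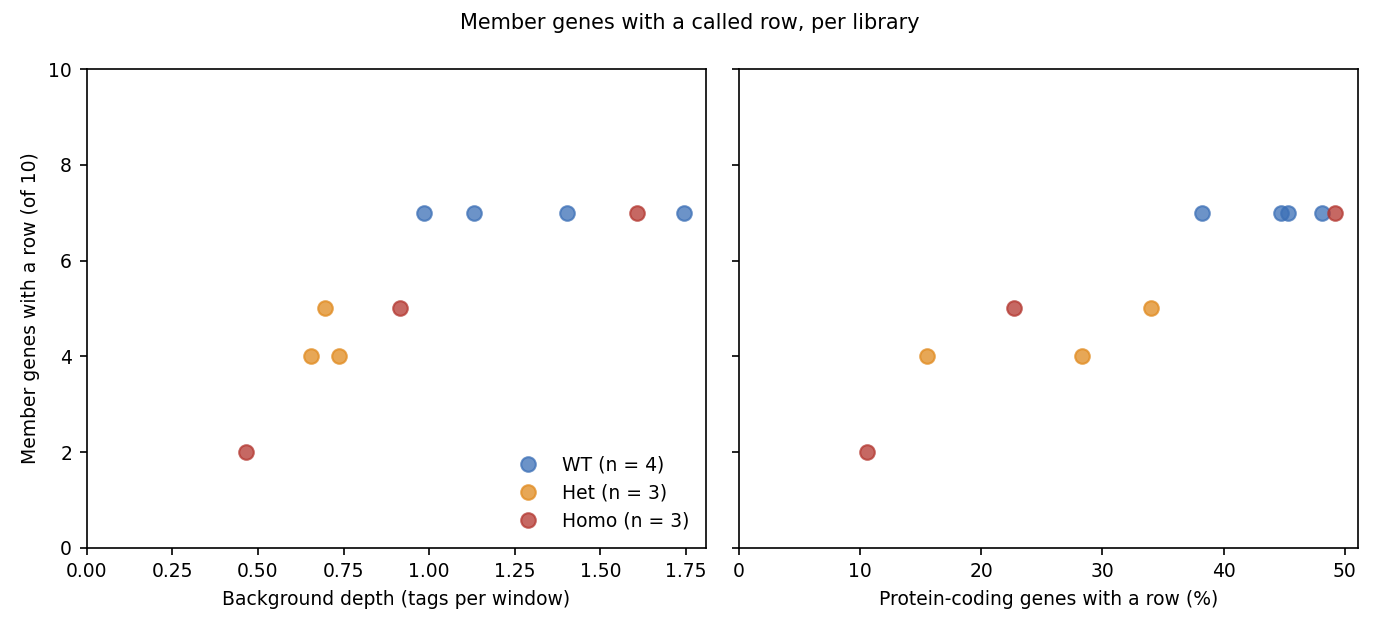
Number of member genes (of 10) with at least 1 called row in each library (points), against the library's background depth in tags per window (left) and against the percent of 21627 protein-coding genes with a row (right). The 4 WT libraries and Homo 3 sit at 7 members on the right of both panels, and Homo 2 sits at 2 members on the left.

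**Figure D2:**
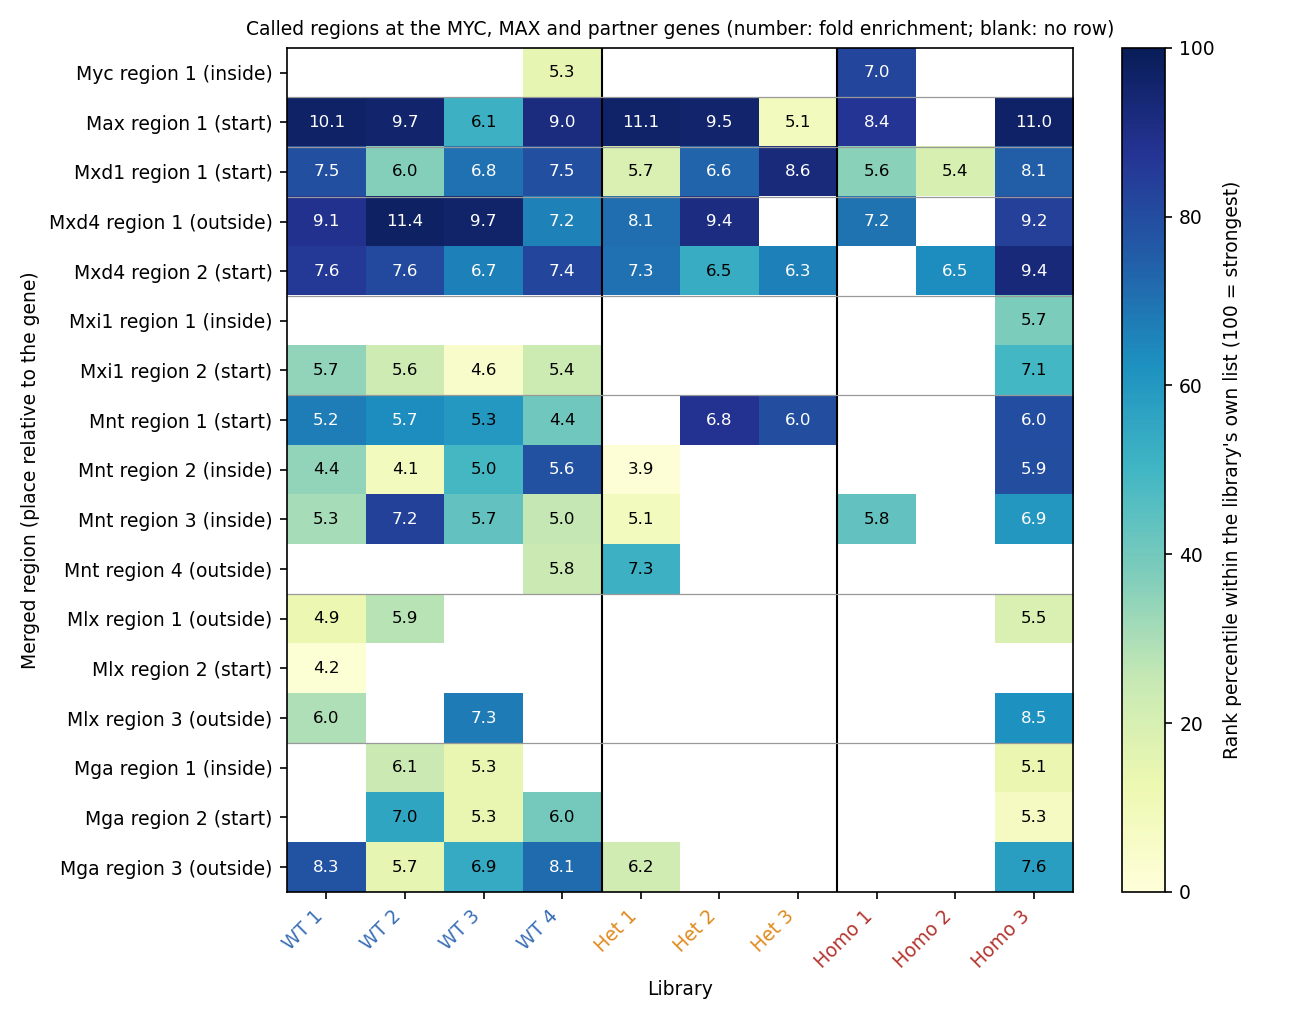
The 17 merged regions (rows) in the 10 libraries (columns), with black lines between WT, Het and Homo. A filled cell is a called row, its number the fold enrichment and its colour the rank percentile within that library's own list, and a blank cell has no row. Mxd1 region 1 is filled in all 10 columns, 14 of 17 regions are filled in Homo 3, and 2 are filled in Homo 2.

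Sequences are shown for the start windows on which the results turn, each 250 bases before to 50 after a RefSeq start (GRCm38.p6), 5′ to 3′ on the gene's strand. Of the members, 9 had such a window, 11 windows in all, and Myc is named only. The first 4 below hold the E-box CACGTG and were called in 9, 9, 4 and 1 libraries. The windows of Mxd1, called in all 10 libraries, and Mycn, called in none, are shown beside them because neither holds CACGTG. Capitals mark matches on either strand to the E-box CACGTG, its variants CACGCG and CATGTG, the CCAAT box (ATTGG on the other strand), the E2F motifs TTTGGCGC and TTTCCCGC, the ETS motif CCGGAAGT and the CRE motif TGACGTCA. The GC box GGGCGG and TATAAA were searched as well and are not capitalised.
Max: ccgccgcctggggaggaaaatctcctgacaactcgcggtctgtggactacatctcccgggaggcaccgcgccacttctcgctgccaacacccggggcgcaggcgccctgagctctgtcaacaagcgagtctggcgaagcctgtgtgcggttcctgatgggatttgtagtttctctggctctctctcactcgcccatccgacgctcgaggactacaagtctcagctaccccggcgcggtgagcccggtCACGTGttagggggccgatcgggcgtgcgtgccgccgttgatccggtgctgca
Mxd4: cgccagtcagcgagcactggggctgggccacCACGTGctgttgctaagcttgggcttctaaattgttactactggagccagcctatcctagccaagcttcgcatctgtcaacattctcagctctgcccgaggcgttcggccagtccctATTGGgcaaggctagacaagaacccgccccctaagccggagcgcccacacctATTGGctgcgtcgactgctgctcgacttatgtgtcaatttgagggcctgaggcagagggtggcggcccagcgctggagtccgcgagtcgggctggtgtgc
Mnt: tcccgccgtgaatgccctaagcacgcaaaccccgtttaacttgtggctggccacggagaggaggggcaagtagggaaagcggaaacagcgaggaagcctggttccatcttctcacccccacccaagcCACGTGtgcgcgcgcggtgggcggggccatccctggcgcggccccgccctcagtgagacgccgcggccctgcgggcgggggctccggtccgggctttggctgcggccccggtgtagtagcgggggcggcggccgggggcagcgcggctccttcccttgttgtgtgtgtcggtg
Mlx: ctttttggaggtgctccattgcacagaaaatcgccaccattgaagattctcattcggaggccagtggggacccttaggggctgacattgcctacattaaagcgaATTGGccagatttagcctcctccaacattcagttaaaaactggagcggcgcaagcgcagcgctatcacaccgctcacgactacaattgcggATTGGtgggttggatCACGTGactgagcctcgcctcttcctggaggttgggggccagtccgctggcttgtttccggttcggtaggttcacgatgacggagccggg
Mxd1: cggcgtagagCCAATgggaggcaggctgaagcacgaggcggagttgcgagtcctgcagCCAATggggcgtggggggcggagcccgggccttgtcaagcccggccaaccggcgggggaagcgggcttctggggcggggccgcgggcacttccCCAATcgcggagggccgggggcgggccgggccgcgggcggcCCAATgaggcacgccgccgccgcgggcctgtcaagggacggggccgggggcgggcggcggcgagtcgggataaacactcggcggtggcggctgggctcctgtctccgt
Mycn: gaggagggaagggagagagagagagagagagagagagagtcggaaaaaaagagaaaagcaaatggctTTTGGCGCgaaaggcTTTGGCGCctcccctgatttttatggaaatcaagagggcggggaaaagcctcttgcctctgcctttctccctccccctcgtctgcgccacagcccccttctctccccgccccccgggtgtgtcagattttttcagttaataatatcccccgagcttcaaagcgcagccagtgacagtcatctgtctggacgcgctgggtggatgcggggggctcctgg

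These windows are chr12:76962199-76962498 (minus strand) for Max, chr5:34187661-34187960 (minus) for Mxd4 and chr11:74830674-74830973 (plus) for Mnt. Those of Mlx, Mxd1 and Mycn are chr11:101087040-101087339 (plus), chr6:86669110-86669409 (minus) and chr12:12941787-12942086 (minus). The E-box CACGTG was in 4 of the 11 member windows and in 7.91% of 21044 windows of the same length over all genes. Its first base lay 3 bp before the start in Max, 40 bp in Mlx, 123 bp in Mnt and 219 bp in Mxd4. A row covered the whole E-box in 9 libraries at Max, in 9 at Mxd4, in 4 at Mnt and in 1 at Mlx, which is every library with a row over that window. The E2F motif TTTGGCGC occurred in Mycn alone among the members, as a pair of matches, and in 0.642% of all windows. CCAAT, in either orientation, was in 3 member windows (Mxd1, Mxd4 and Mlx) and in 38.5% of all windows, and Mxd1 held 4 copies. The GC box was in 9 of 11 member windows, against 46.7% of all. GC content was 76.7% in the Mxd1 window and between 55% and 75% in the other 10, and 8 of the 11 lay above the median of 56.7% over all windows. A match is a description of these letters and not a measured binding site.

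Myc (chr15:61985341-61990361), the gene of the driver itself, had a single region, chr15:61987533-61988065 inside the gene. It was called in 2 libraries, with summits 2559 bp (WT 4) and 2608 bp (Homo 1) from the lower-coordinate end of the gene. In WT 4 the row had a fold of 5.26, meaning summit tags over local background with 1 added to each, and ranked at the 14.7th percentile of its list. In Homo 1 the fold was 6.95 and the percentile 82.0, although Homo 1 was shallower than WT 4. The transgene shares sequence with Myc, so reads of the transgene and of the endogenous gene cannot be told apart there. With each summit thinned to the depth of Homo 2, the Homo 1 row had a probability of 0.883 of being called again and the WT 4 row 0.373. Mycn (chr12:12936093-12941836) and Mycl (chr4:122995588-123002490), the paralogs best known from neural, embryonic and lung tissue, had no row in the gene or within 10 kb in any of the 10 libraries. For a peak list this says only that no stretch passed the caller's threshold at this depth.

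Max (chr12:76937269-76962323, minus strand) had 1 region, chr12:76962071-76962649, over its start. It was among the strongest rows of most lists in which it appeared. Its fold was 10.1, 9.74, 6.12 and 8.98 in WT 1 to 4, 11.1, 9.54 and 5.10 in Het 1 to 3, and 8.41 and 11.0 in Homo 1 and Homo 3. The within-list percentiles were 97.0, 95.4, 51.5 and 91.7 in WT, 96.4, 95.5 and 8.3 in Het, and 87.2 and 96.8 in Homo. WT 3 and Het 3 were the low libraries, and the groups overlapped. Homo 2 had no row at Max. After thinning to the depth of Homo 2, the 9 rows had probabilities between 0.555 (Het 3) and 1.0 (Het 1 and Het 2) of being called, so all 9 would more often than not pass at that depth. Summits lay from 202 bp before the start (Het 2) to 14 bp after it (Het 3).

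Mxd1 (chr6:86647044-86669234, minus strand), an antagonist that rises as cells leave the cycle, had 1 region, chr6:86668837-86669665, over its start. This was the only member region called in all 10 libraries, and it had a row in all 10 when summits were thinned to equal depth. With −log10 p of at least 10 required it was called in 7 libraries, and with each list cut to its 1763 strongest rows in 3 (Het 2, Het 3 and Homo 2), none of them WT. The strongest row's fold was 7.49, 6.01, 6.76 and 7.54 in WT 1 to 4, 5.65, 6.64 and 8.57 in Het 1 to 3, and 5.56, 5.44 and 8.08 in Homo 1 to 3. Its percentile ran from 19.0 (Het 1) to 92.3 (Het 3) within Het alone, which spans every WT value, so no order of the groups can be read from it. WT 3 had a second row, with its summit 176 bp after the start. All other summits lay before the start, from 66 bp (Het 1) to 317 bp (Homo 2). Rows covered the motifs next to the start in fewer libraries than those farther upstream: the CCAAT copy that starts 192 bp before the start was inside a row in 10 libraries and the GC box that starts 7 bp before it in 7.

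Mxd4 (chr5:34176580-34187710, minus strand), another MXD repressor, had 2 regions. Region 2, chr5:34187628-34188212, covered its start and was called in 9 libraries, all but Homo 1. The fold there was 7.61, 7.65, 6.74 and 7.40 in WT 1 to 4, 7.26, 6.47 and 6.30 in Het 1 to 3, and 6.50 and 9.36 in Homo 2 and Homo 3. Percentiles ran from 53.4 (Het 2) to 92.9 (Homo 3), a narrower range than at Max or Mxd1. Region 1, chr5:34169143-34169843, lay 6737 bp from the gene over the starts of Haus3 and Poln. It was called in 8 libraries and missing from Het 3 and Homo 2, with folds between 7.21 and 11.4. The call of Mxd4 in all 10 libraries therefore rests in Homo 1 on a region that belongs to the start of its neighbours, and within 1 kb of the gene Mxd4 had a row in 9.

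**Figure D3:**
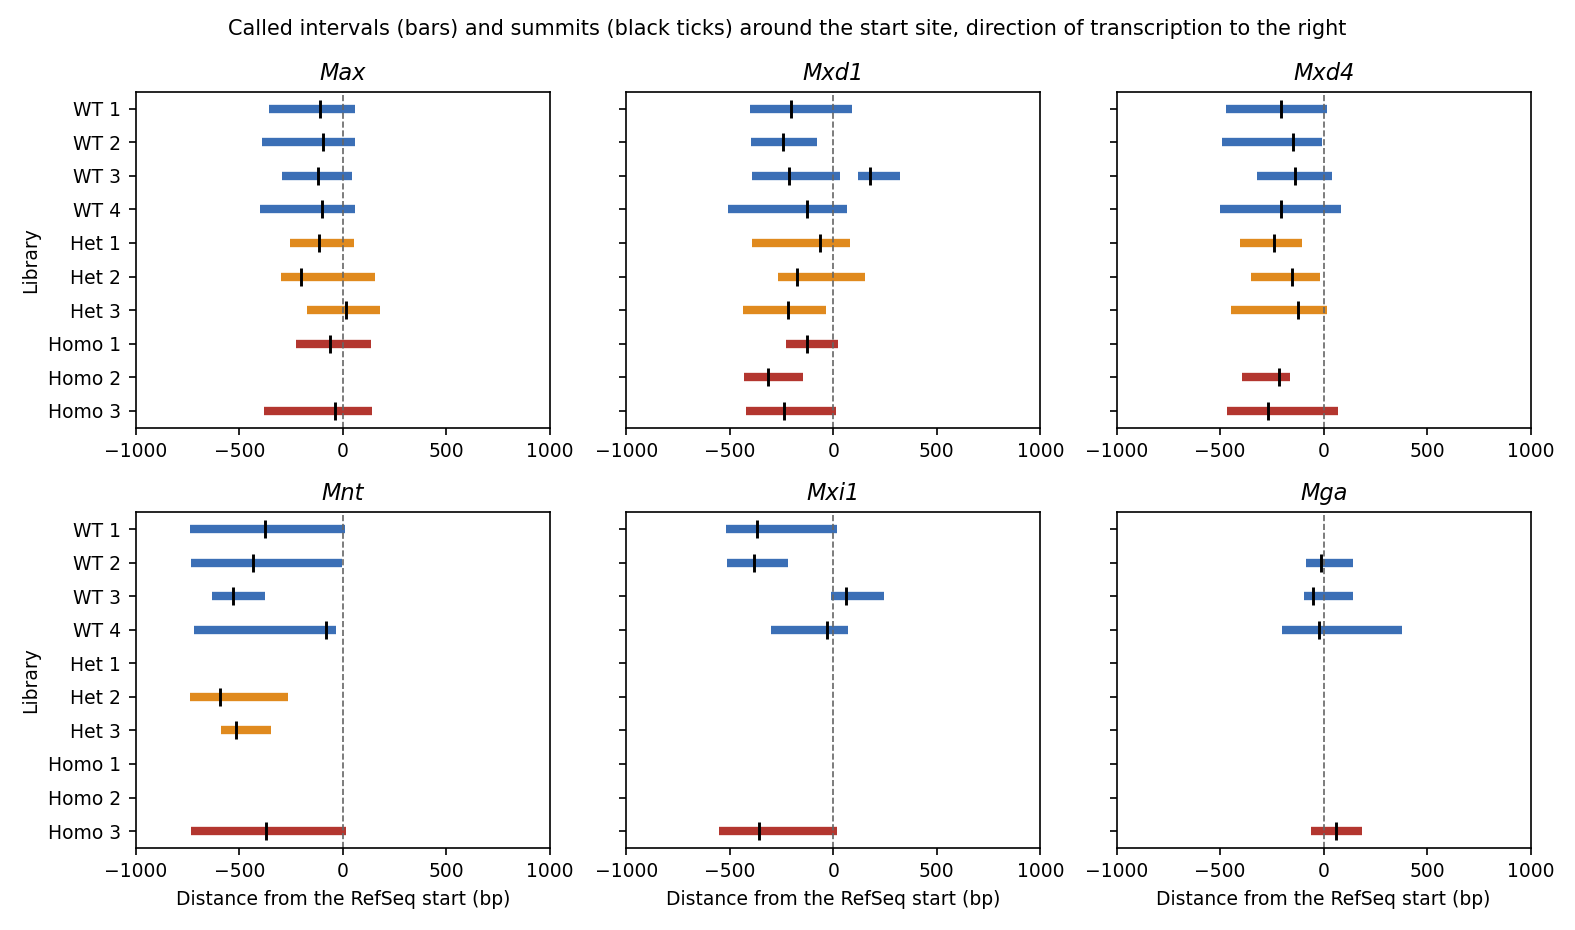
Called intervals (bars) and summits (black ticks) within 1 kb of a RefSeq start (dashed line at 0) for 6 members, with 1 line per library in blue (WT), orange (Het) or red (Homo), and transcription running to the right. For Mxi1 the distance is from the start called in the most libraries. Bars at Max, Mxd1 and Mxd4 reach into all 3 groups and lie mainly before the start, the Mxi1 and Mga panels hold no Het bar, and Mnt bars reach farthest upstream.

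Mnt (chr11:74830806-74845725, plus strand), the MAX partner that is expressed in proliferating and resting cells alike, had 4 regions and 25 rows, the most of any member. Region 1, chr11:74830184-74830940, was called in all 4 WT libraries with folds of 5.25, 5.66, 5.33 and 4.44. In Het 2, Het 3 and Homo 3 its folds were 6.79, 6.03 and 5.96, and Het 1, Homo 1 and Homo 2 had no row. Summits lay between 80 bp (WT 4) and 594 bp (Het 2) before the start, and a row reached into the start window itself only in WT 1, WT 2, WT 4 and Homo 3. Region 2, chr11:74831891-74832561 inside the gene, was called in 6 libraries: the 4 WT, Het 1 and Homo 3. Its folds were 4.39, 4.10, 5.04 and 5.64 in WT, 3.93 in Het 1, where it ranked at percentile 1.0, and 5.93 in Homo 3. Region 3, chr11:74837675-74838755, also inside the gene, was called in the 4 WT libraries, Het 1, Homo 1 and Homo 3, with folds between 4.31 and 7.18 over 10 rows. Region 4, chr11:74848209-74848430, lay 2484 bp beyond the gene and was called in WT 4 and Het 1, with folds of 5.84 and 7.30. Each WT library thus had at least 3 Mnt regions, while no single region was called in every Het library, although each Het library had at least 1.

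Mxi1 (chr19:53310128-53373293, plus strand), which encodes the MXD2 repressor, was the only member with rows in all 4 WT libraries and none in Het. Region 2, chr19:53329142-53329938, covered the later pair of its 3 RefSeq starts and was called in WT 1 to 4 and in Homo 3. The folds were 5.70, 5.63, 4.61 and 5.39 in WT and 7.14 in Homo 3. The percentiles were 34.3, 23.0, 4.3 and 23.2 in WT and 49.3 in Homo 3, so every WT row was in the weaker part of its list. WT 3 had its summit at 61 bp after the later of these starts, and its row did not overlap that of WT 2, so the WT rows did not share 1 interval. The first RefSeq start of the gene had no row in any library. Region 1, chr19:53314141-53314385 inside the gene, was called in Homo 3 only, with a fold of 5.71.

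That pattern, every WT and no Het library, was shared by 552 genes, or 2.55% of those tested, and 1 of 10 members had it. Fisher's exact test on the libraries (two-sided, 4 of 4 against 0 of 3) gave p = 0.0286 for Mxi1, the smallest this design allows, and an adjusted p of 1 by the Benjamini-Hochberg method over all genes. The call on Mxi1 held when each library was left out in turn. It did not hold at equal depth, which was the depth of Homo 2 (0.464), a library outside this comparison. The Het libraries were deeper (0.655 to 0.738), and thinning the WT rows to their depth was not done. Thinned to the depth of Homo 2, the rows of WT 1, WT 3 and WT 4 had probabilities of 0.315, 0.312 and 0.318 of being called, that of WT 2 had 0.507 and that of Homo 3 had 0.644. At equal depth 146 genes and no member had the pattern, and with every list cut to its 1763 strongest rows 48 genes and no member had it. With −log10 p of at least 10 required, Mga had the pattern in place of Mxi1, as did 765 genes (3.54%). In WT 1 and WT 3 that call on Mga came only from the start of Mapkbp1. Leaving out Het 1, Het 2 or WT 3 gave 1547, 981 or 977 genes in place of 552.

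**Figure D4:**
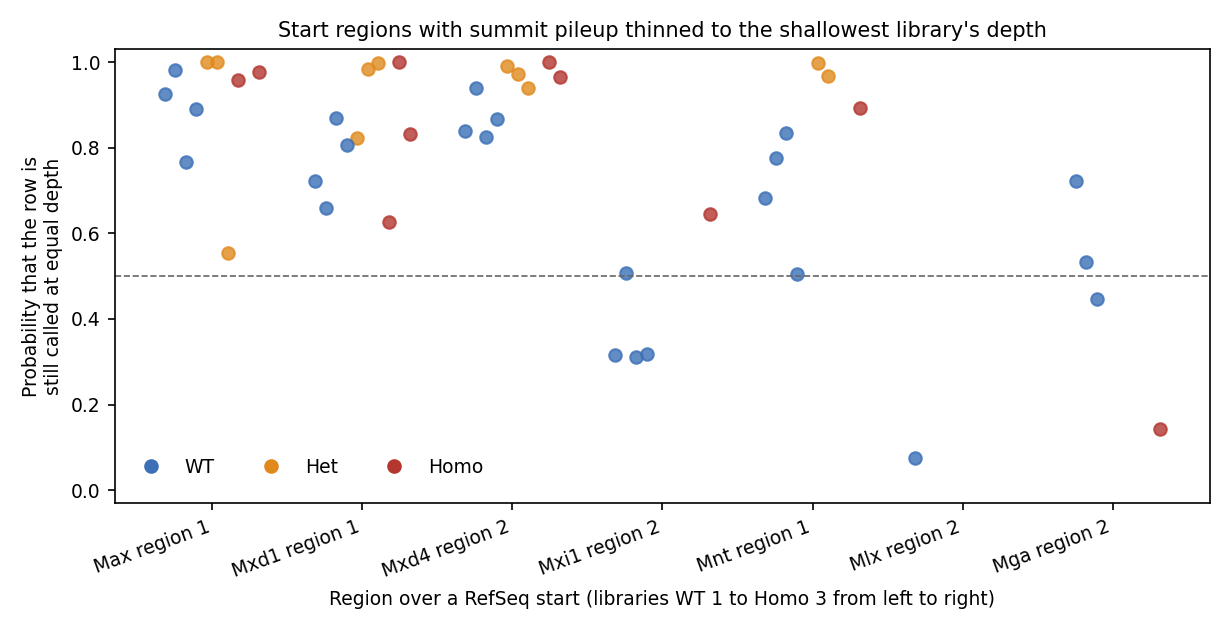
Probability (y axis) that the row at each region over a RefSeq start (x axis) is still called after its summit tags are thinned to the depth of Homo 2, with 1 point per library with a row, ordered WT 1 to Homo 3 from left to right within a region and coloured by group. Points at Max, Mxd1, Mxd4 and Mnt lie above the dashed line at 0.5, and 3 of the 4 WT points at Mxi1 lie between 0.312 and 0.318.

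Mlx (chr11:101086707-101092207, plus strand), the partner of MLXIP and MLXIPL, was called in WT 1, WT 2, WT 3 and Homo 3 and in no Het library. Its own start was covered in WT 1 alone (region 2, chr11:101087198-101087408), with a fold of 4.23 at the 1.7th percentile. Region 1, chr11:101082415-101082705, lay 4002 bp before the gene inside Coasy, with folds of 4.87, 5.90 and 5.52 in WT 1, WT 2 and Homo 3. Region 3, chr11:101095265-101095822, covered the start of Psmc3ip 3058 bp beyond the gene, with folds of 6.01, 7.33 and 8.45 in WT 1, WT 3 and Homo 3. Most of what was called near Mlx therefore lay at or in its neighbours. Within 1 kb of the gene Mlx had a row in WT 1 only.

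Mga (chr2:119872503-119970129, plus strand), the largest member, had 3 regions. Region 2, chr2:119897027-119897608, covered its RefSeq start window and was called in WT 2, WT 3, WT 4 and Homo 3, with folds of 6.99, 5.29, 5.95 and 5.30. Region 1, chr2:119872776-119873418, lay near the lower-coordinate end, which is the 5′ end of this plus-strand gene. The only start window of Mga lies farther downstream, so region 1 was not counted as a start region. It was called in WT 2, WT 3 and Homo 3, with folds of 6.10, 5.29 and 5.06. Region 3, chr2:119972121-119972514, lay 1992 bp beyond the gene over the start of Mapkbp1, with folds of 8.28, 5.74, 6.94 and 8.09 in WT 1 to 4, 6.18 in Het 1 and 7.62 in Homo 3. This region was the source of the Mga call in WT 1 and in Het 1. No row in the Mga gene or within 1 kb of it was called in a Het library.

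Against Homo, no member had rows in all 4 WT libraries and none in Homo, a pattern of 27 genes (0.125%). None had the reverse pattern either, which 1 gene (0.00462%) showed. Homo 3 carries this result for the members. It had rows at 14 of the 17 regions, against 12 in each WT library, 5 in Homo 1 and 2 in Homo 2. The share of all genes with a row was 49.2% in Homo 3, 38.2% to 48.1% in WT, 22.7% in Homo 1 and 10.6% in Homo 2. Without Homo 3, Mxi1 and Mga had rows in every WT library and in neither remaining Homo library, as did 2676 genes (12.4%). The count over all genes was also above 1.5 times its value without WT 1 (45), WT 2 (49), WT 3 (85) or Homo 1 (51), and no member was called in those. It was 82 at equal depth and 51 with −log10 p of at least 10, again with no member. By Fisher's exact test, 0 genes had an adjusted p under 0.05 and 28 an unadjusted p under 0.05. Max and Mnt, with 4 of 4 WT and 2 of 3 Homo libraries, had p = 0.429, and Mxi1 and Mga, with 4 of 4 and 1 of 3, had p = 0.143, both by the exact test.

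Between Homo and Het, 0 members were called in every Homo and no Het library (47 genes, 0.217%) or in the reverse pattern (5 genes, 0.0231%). The exact test with 3 against 3 libraries cannot go below 0.1, and 0 genes had an unadjusted p under 0.05. In every Het and no WT library 1 gene (0.00462%) and 0 members had a row.

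Set against all 6 tumours with Cre, 0 members and 14 genes (0.0647%) had rows in all 4 WT libraries but none elsewhere, and the reverse pattern occurred in 0 genes (0%). Without Homo 3 the count was 375 genes (1.73%), with Mxi1 among them. It was 26, 25, 56 and 23 genes without WT 1, 2, 3 and 4. Fisher's exact test gave p = 0.0476 for Mxi1 (4 of 4 against 1 of 6), with an adjusted p of 1 over all genes by Benjamini-Hochberg, and p = 0.0762 for Mga by the exact test. Across the 4 comparisons, no gene of the 21627 had an adjusted p under 0.05. At an unadjusted p under 0.05 there were 553 genes between WT and Het and 462 between WT and all Cre tumours. The WT libraries are shared by 3 of these comparisons, so their results are not independent.

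At equal depth the members split into those that stayed and those that did not. Max, Mxd1, Mxd4 and Mnt had rows in the same libraries as before. Mga did so as well with its 10 kb counted, but its own start region was left with WT 2 and WT 3, after probabilities of 0.447 in WT 4 and 0.143 in Homo 3. Mxi1 was left with WT 2 and Homo 3, Mlx with WT 2, WT 3 and Homo 3, and Myc with Homo 1. The mean share of all genes with a row was then 33.5% in WT, 25.3% in Het and 21.9% in Homo. In bulk tissue, fewer cells with an open site and a site less open in each cell cannot be told apart.

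The wider network, a list of 37 genes of MYC cofactors, stability factors, corepressors and complex partners, was measured in the same way. Each of the 37 had a row in at least 1 library, against 55.5% of all genes. The list was chosen with earlier results of these data known, so its shares are description only. Mlxipl, the glucose-sensing partner of MLX, and Ep400 and Bptf, which encode chromatin remodelling cofactors of MYC, were called in all 10 libraries (8.11% of the list, against 4.1% of all genes). Kat5 encodes an acetyltransferase recruited by MYC. It had a row in all 4 WT libraries, in no Het library and in 2 of the 3 Homo libraries. Rows in every WT and no Het library were a pattern of 552 of all genes (2.55%), and of 146 at equal depth. No gene of the list was called in every WT and no Homo library.

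The share of all genes with a row was 38.2% to 48.1% in a WT library, 15.5% to 34.0% in a Het library and 10.6% to 49.2% in a Homo library, and the counts below are to be read beside it. By role, the 3 other members of the MAX and MLX branches (Mlxip, Mlxipl and Mxd3) all had a row in each WT library. Of 13 MYC cofactors, 10 or 11 had a row in a WT library, 4 to 8 in a Het library and 5 to 13 in a Homo library. Of 8 kinases and stability factors, among them Fbxw7, which marks MYC for degradation, 7 or 8 had a row in a WT, 2 to 7 in a Het and 0 to 8 in a Homo library. Of 6 corepressors of the MXD proteins and MNT, 4 to 6 had a row in a WT, 2 to 5 in a Het and 0 to 5 in a Homo library. Sin3a, the scaffold of that complex, was called in 4 WT, 3 Het and 2 Homo libraries, as Max and Mnt were. Sin3b, from the same sublist, was called in 2 WT, 0 Het and 1 Homo libraries. Of 8 genes of the MGA complex, 6 or 7 had a row in a WT, 4 or 5 in a Het and 1 to 8 in a Homo library. In each of these 4 sublists the Homo range was the widest.

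For 6 members called in 2 to 9 libraries, other genes with exactly the same libraries were sought and ordered by likeness, the mean absolute difference in rank percentile of the strongest row. The pattern of Max and Mnt, all but Homo 2, was shared by 910 genes, with Usp42 nearest to Max (8.10 percentile points over 9 libraries) and Gm20604 and Gon7 nearest to Mnt (8.42). Mxi1 shared its 5 libraries with 360 genes, nearest 2310030G06Rik and Cryab (7.33). Mga shared its 6 libraries with 572 genes, nearest Mapkbp1 (0.04), whose start region is the same rows. Mlx shared its 4 libraries with 71 genes, and its neighbours Coasy and Psmc3ip (0.0) count the same rows. Myc, in WT 4 and Homo 1, shared its pattern with 6 genes, nearest Smco4 (16.8).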

How the data were processed

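The 10 deposited files are MACS2 narrowPeak lists, 1 per library, in mm10 coordinates. The submitters' processing notes name Bowtie2, MACS2 and deepTools without versions. Their parameters and filters were not given in the sources used here. Per the format of the deposited lists, the authors' values for each peak are a fold enrichment (a ratio), a −log10 p, a −log10 q, a score and the offset of the summit. The score and −log10 q were not used. The weakest row of a list had a −log10 p of 5.0 to 5.63. These are the authors' own values per peak and were used only to describe, rank or filter rows within a list. A rank percentile is the position of a row by −log10 p in its own list, with 100 the strongest.

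From the deposited fold and −log10 p, a whole-number summit pileup and a Poisson background were recovered for 100% of rows in each list, with a tolerance of 0.001. Depth was the lowest background value that at least 10 rows had in common. For equal depth, a row was kept when its summit, thinned to the background of Homo 2 (0.464), had a probability of at least 0.5 of reaching a −log10 p of 5. The total number of reads was not used.

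Genes and start windows come from RefSeq tables for GRCm38.p6, and exon, intron and UTR positions were not used here. Presence of a row per library was compared over 21627 genes by Fisher's exact test (two-sided) with Benjamini-Hochberg adjustment and by the pattern of every library of 1 group and no library of the other. All members were named. Genes of the wider network were named where a pattern called them or as an example of a role, the latter chosen after their values were seen. Some results of the wider network are not reported here. The 3 genes of like pattern were ranked by rank percentile, and those nearest are printed. The members and lists were chosen with earlier results of these data known. Alternatives were a 1 kb flank, summits only, −log10 p of at least 10, lists of equal number or depth, each library left out and a replicate block, and start windows only, the last chosen after seeing the data. Same-numbered libraries of different groups did not deviate together. The scripts were tested on simulated data. Python 3.11.15 with numpy 2.4.6, pandas 2.3.3, scipy 1.17.1 and matplotlib 3.10.9 was used.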

Additional observations from a re-analysis of the deposited data

Results flagged for a closer look

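At Max, the within-list rank percentile of WT 3 was 51.5, while the other 3 WT libraries were at 91.7, 95.4 and 97.0. The gap to the nearest library was 0.884 of the whole WT range, above Dixon's 95% critical value for 4 values. It was the only value beyond that limit in 21 such tests over the members, and chance alone flags about 1 in 20 groups. The fold of WT 3 at Max was 6.12, and 9 libraries had a row there.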

How the results depend on the processing

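The number of regions at the members was 17, and 7 with lists of equal number. It lay between 12 and 20 with summits merged within 250 bp, −log10 p of at least 10, a 1 kb flank, equal depth or a library left out. The equal number and equal depth settings for this count were chosen after seeing the data. Members with a row in every library numbered 2, and 1 with a 1 kb flank, with −log10 p of at least 10, with lists of equal number or with start windows only. Mxd1 was the gene lost with −log10 p of at least 10 and at equal number, and Mxd4 in the other cases. At equal number the start region of Mxd4 itself was kept in 7 libraries. Its call in WT 3, Het 2 and Homo 1 came only from the region over the starts of Haus3 and Poln. Leaving out a library gave 2 to 4 members with a row in every library, with Max and Mnt added without Homo 2. Members called in every WT and no Het library numbered 1, and 0 with lists of equal number or equal depth. Leaving out a library gave 1 to 2, with Mlx added without WT 4 and Mga without Het 1. Against Homo, leaving out a library gave 0 to 2 members, and against Het and Homo 0 to 1, in both cases from Homo 3.

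Over all genes, the 552 called in every WT and no Het library became 48 at equal number and 146 at equal depth, and 552 to 1547 with a library left out. The 27 against Homo became 51 with −log10 p of at least 10 and 82 at equal depth, and 27 to 2676 with a library left out. The 14 against Het and Homo became 22 with −log10 p of at least 10 and 6 at equal number, and 14 to 375 with a library left out. The 47 called in every Homo and no Het library became 30 with −log10 p of at least 10, 21 at equal depth and 18 with start windows only, and 47 to 338 with a library left out. The cause of these moves was not tested.

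The labels give the groups the same replicate numbers. Correlations across genes lay between -0.324 and 0.038 for same-numbered libraries, and between -0.202 and 0.258 for the other pairs. They gave no sign that same-numbered libraries go together, but they cannot exclude a shared batch. With the replicate block, restricted to replicates 1 to 3, 2 members (Mxi1 and Mlx) and 655 genes were called in every WT and no Het library, 38 genes against Homo and 47 in Homo against Het. The smallest p that the block allows is 0.25. A missing row says only that no stretch passed the caller's threshold at that library's depth, which was lowest in Homo 2.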
